A study of Mus musculus with 12 samples.

Results

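Levels and exon usage were examined for 10 genes whose products accompany AMPA receptors to the synapse or shape their currents: Cacng2, Cacng3, Cacng8, Cnih2, Cnih3, Shisa9, Grip1, Pick1, Nptx1 and Nptxr. They were chosen by function, as partners of receptors whose arginine-to-glycine (R/G) editing is reduced without ADAR2, and all 10 were among the 15191 genes of the deposited gene table. The RNA came from frontal cortex of male C57BL/6 mice, with 6 Adar2-/-/Gria2R/R libraries and 6 Adar2+/+ Gria2R/R libraries from litter mates. Both genotypes thus carry a Gria2 allele whose DNA already spells the arginine that editing would otherwise write into the channel pore, so neither is an ordinary wild type. The labels give no age. In bulk tissue, fewer cells of a type and less RNA per cell cannot be told apart.

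AMPA receptors carry most fast excitatory transmission in the cortex. Their pore is built from the Gria subunits, but transmembrane AMPA receptor regulatory proteins (TARPs), cornichons and CKAMP proteins bind the receptor, help it leave the endoplasmic reticulum and reach the membrane, and slow or speed its desensitization. PDZ adaptors inside the cell and pentraxins outside it then hold receptors at synapses or let them cycle. The R/G site lies in the ligand-binding domain of the subunits, and its editing speeds recovery from desensitization, a property that TARPs and cornichons also tune.

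The deposited tables hold the authors' comparisons and no value per library, so no spread between libraries can be shown for gene levels. Depth per library is unknown. The gene table calls its conditions A and B without saying which is the knockout. Its differences are given here as log2 of A over B, with the deposited sign turned round, and its level as the mean normalized count over both conditions. For the targeted gene Adarb1 the authors' deposited table gave a log2 difference of -2.21 at a mean count of 4181, and this was not used to name the conditions. All 10 excitatory cortical neuron markers and all 10 interneuron markers used to check the tissue were listed.

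None of the 10 genes had an adjusted p under 0.05 from DESeq, against 0.0197% of all genes of the authors' deposited table. An unadjusted p under 0.05 was listed for 1 of the 10, Nptx1, and for 1.86% of all genes in the authors' deposited table. That share of all genes is below the nominal 0.05, so these p-values are conservative and few small ones are weak evidence of no change. The log2 differences of the 10 in that table ran from -0.15 for Nptxr to 0.20 for Nptx1, and 6 of them were smaller than 0.05 in either direction, as were 43.6% of all genes. Their median was 0.029, beside 0.0063 over all genes. Positive values were listed for 7 of the 10 and for 52.9% of all genes. Scaling to the median of the excitatory neuron markers lowers every value by 0.12, which by construction turns 5 of these 7 negative, as it does 71.3% of all genes above 0.

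**Figure D1:**
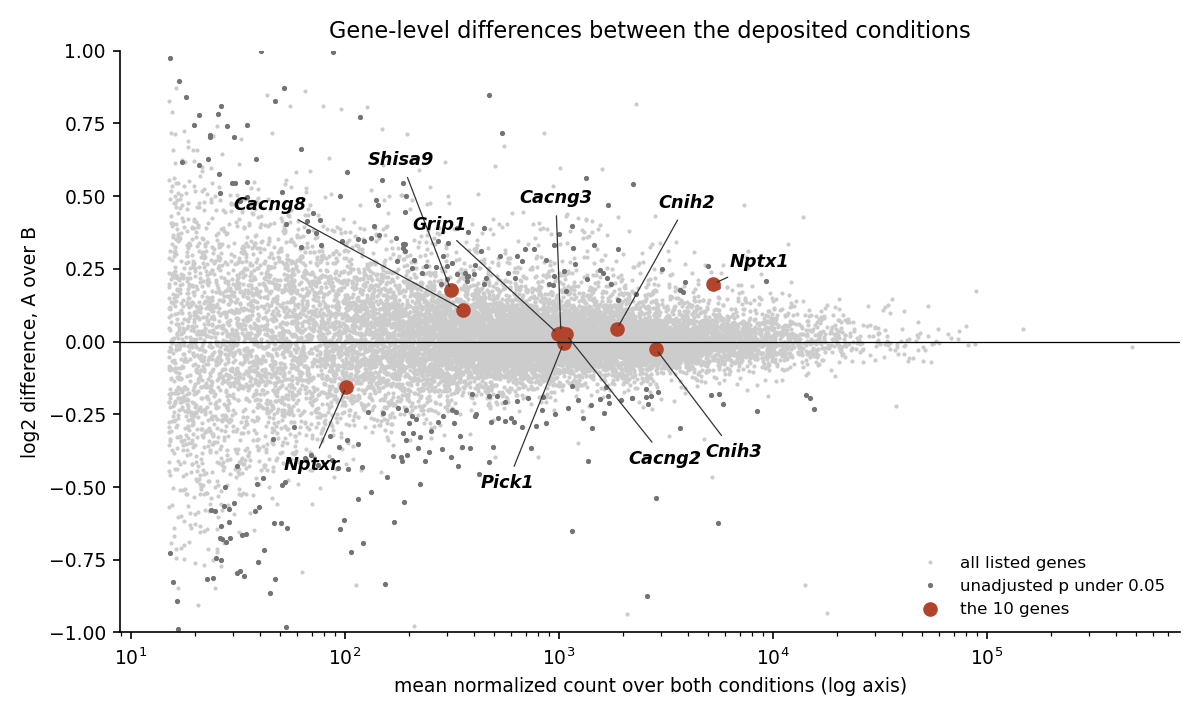
Log2 difference of A over B against mean normalized count (log axis) for the listed genes, from the authors' deposited table, with genes at an unadjusted p under 0.05 in dark grey and the 10 genes in red. The 10 lie between -0.15 and 0.20, with Nptx1 highest, and 33 of the 15191 genes lie outside the plotted range.

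The 3 TARPs are stargazin, encoded by Cacng2, and its relatives encoded by Cacng3 and Cacng8, the last of which is best known from the hippocampus. For Cacng2 the authors' deposited table listed a mean count of 1081 and a log2 difference of 0.025 (p = 0.967). For Cacng3 the authors' deposited table listed 1022 and a difference of 0.031 (p = 0.906). The difference of Cacng2 minus that of Cacng3 was -0.0062. Cacng8 had 356 counts and a difference of 0.11 (p = 0.462) as the authors' deposited table listed it. The adjusted p of all 3 was 1.

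The cornichons Cnih2 and Cnih3 assist export of the receptor from the endoplasmic reticulum and slow its deactivation. Cnih2, with 1868 counts, had a log2 difference of 0.043 (p = 0.499, adjusted p = 1) per the authors' deposited table. Cnih3, with 2833 counts, had one of -0.024 (p = 0.792, adjusted p = 1) per the authors' deposited table. The 2 values point in opposite directions, and neither passed.

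Shisa9 encodes CKAMP44, a membrane protein that slows recovery of AMPA receptors from desensitization. The authors' deposited table listed it at 314 counts with a log2 difference of 0.18 (p = 0.398, adjusted p = 1), the second largest of the 10 and from their second lowest count. Among the 500 genes closest to Shisa9 in mean count, the smallest difference with an unadjusted p under 0.05 was 0.21. The difference listed for Shisa9 lay below this. Only 15 of the 500 reached that p, so 0.21 is an observed minimum and not a detection limit.

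Grip1 and Pick1 encode PDZ proteins that bind the tails of AMPA receptor subunits: GRIP1 anchors receptors and links them to motor proteins, and PICK1 promotes their removal from the surface. The authors' deposited table listed Grip1 at 991 counts with a log2 difference of 0.027 (p = 0.815, adjusted p = 1). Pick1 was listed at 1055 counts with a difference of -0.0033 (p = 0.955, adjusted p = 1) by the authors' deposited table. That was the smallest difference of the 10, and 3.17% of all genes lay closer to 0. Among the 500 genes nearest in mean count, 6 neighbours of Grip1 and 4 of Pick1 had an unadjusted p under 0.05. The smallest differences among these were 0.20 and 0.17, which are observed minima and not detection limits.

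The neuronal pentraxins are secreted or membrane-bound proteins that cluster AMPA receptors from the extracellular side. Nptx1, which encodes a secreted one, had the highest count of the 10, with a mean listed by the authors' deposited table at 5267. Its level was 1.15-fold higher in A by the authors' deposited table (log2 difference 0.20, p = 0.0261, adjusted p = 1), which did not pass. By p it stood at rank 146 of 15191, and by size of the difference at rank 2050. Of the 500 genes closest to Nptx1 in mean count, 6 had an unadjusted p under 0.05, with differences of 0.18 or more. Nptx2, the pentraxin induced by neuronal activity and not one of the 10, lay the other way, at 1205 counts with a log2 difference of -0.19 (p = 0.0678, adjusted p = 1) by the authors' deposited table. The 2 pentraxins thus differed by 0.39 in their log2 values, a contrast noticed after the values were seen and not tested.

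Nptxr encodes the pentraxin receptor, which is anchored in the membrane. It had the lowest count of the 10, at 102, with a log2 difference of -0.15 (p = 0.688, adjusted p = 1) by the authors' deposited table. Among the 500 genes closest to Nptxr in mean count, 15 had an unadjusted p under 0.05, and the smallest difference among these was 0.34. The exon table holds its bins only under an identifier joined with Cbx6 and Npcd, a gene also called Cbx6-Nptxr. The highest bin of that joined identifier, E001, had a mean count of 12063, while Cbx6 had a gene-level mean of 7838 in the authors' deposited table. The 30 bins sum to 283 times the Nptxr gene count, but that sum also covers Cbx6 and Npcd. It is therefore not like the sums for the 8 genes with an identifier of their own, which were between 1.07 and 1.42 times the gene count. For the identifier that Pick1 shares with Lgals1-ps2 the bins summed to 1.80 times the Pick1 count. In the GENCODE M21 models 17.2% of the exonic bases of Nptxr are shared with Npcd. The Nptxr gene value is therefore uncertain, and how the reads of this locus were divided was not tested.

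Levels can be compared between genes only per length, and for this the counts were divided by the exonic length of each gene in GENCODE M21, which need not match the models that the authors counted on. On this scale of normalized counts per kilobase of exon, both conditions together, Cnih2 stood highest at 1364, followed by Cnih3 at 1030.0 and Nptx1 at 1009.6. Cnih3 and Nptx1 were only 1.02-fold apart. Cacng3 came next at 368, 2.74-fold below Nptx1. Cacng2 at 196, Pick1 at 160.4, Cacng8 at 152 and Grip1 at 123 formed a close group in which neighbours were 1.06-fold to 1.24-fold apart. Shisa9 stood at 59.8 and Nptxr, with its uncertain count, at 19.6. Without a spread per library, no order between neighbours could be tested. No likeness of pattern to other genes was computed, since 2 conditions give no pattern to match.

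**Figure D2:**
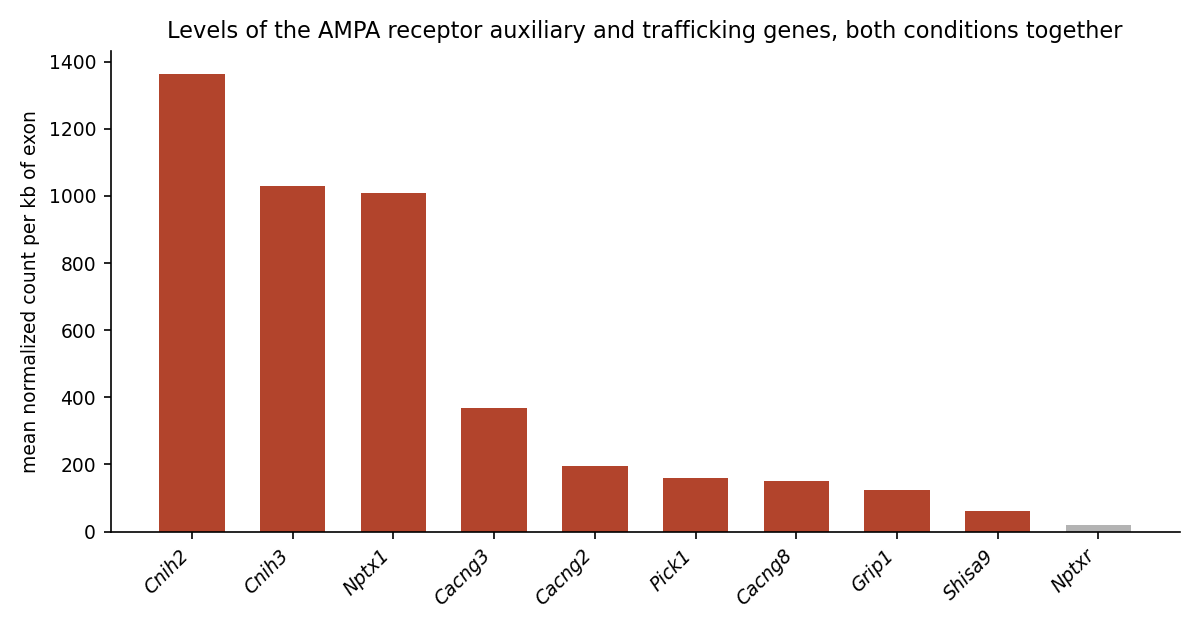
Mean normalized count per kilobase of exon for each of the 10 genes, both conditions together, computed from the mean count of the authors' deposited table and GENCODE M21 exon lengths, with no error available. Cnih2, Cnih3 and Nptx1 stand at 1009.6 or higher, Cacng3 at 368, and the others lower, with Nptxr in grey because its count is uncertain.

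Exon usage was compared for 118 bins, 65 in 8 genes with an identifier of their own, 23 under an identifier that Pick1 shares with Lgals1-ps2, and the 30 of the Nptxr locus. A bin is a stretch of exon counted as a unit, and its change is relative to the other bins of the same gene. This table states its genotypes, and its changes are given here as log2 of knockout over control, with the deposited sign turned round. An approximate SE of each change was computed from the deposited dispersion and mean count with 6 libraries per genotype. None of the 118 bins had an adjusted p under 0.05 in the table, against 0.00738% of all bins, and 3 had an unadjusted p under 0.05, against 1.67% of all bins. The median change of the 118 was -0.0085, beside 0.00069 over all bins. Changes above 0 were listed for 54 of the 118 and for 50.3% of all bins. The approximate 95% interval held 0 for 115 of the 118 and for 98.6% of all bins. The share over all bins lies above the nominal 95%, so these intervals and the deposited p-values of bins are conservative. Few small p-values are therefore weak evidence of no change.

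The authors' deposited table listed changes between -0.16 and 0.024 for the 4 bins of Cacng2, between -0.057 and 0.13 for the 4 of Cacng3, and between -0.069 and 0.18 for the 5 of Cacng8. All 13 had an approximate 95% interval that held 0, and the intervals reached as far as -0.45 for Cacng2 and 0.60 for Cacng8. The smallest p among them was that of bin E002 of Cacng2, for which the authors' deposited table listed a change of -0.16 (interval -0.45 to 0.13, p = 0.239, adjusted p = 1). The bin of smallest p was E003 in Cacng3 (change 0.13, p = 0.260) and E004 in Cacng8 (change 0.18, p = 0.356) by the authors' deposited table.

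Nptx1 and Cnih2 gave the narrowest ranges. The 5 bins of Nptx1, with mean counts from 273 to 4186, had changes between -0.029 and 0.041, and the smallest p belonged to E002 (change 0.041, p = 0.594) by the authors' deposited table. The 6 bins of Cnih2 lay between -0.056 and 0.062, with the smallest p at E003 (change 0.056, interval -0.096 to 0.21, p = 0.399) by the authors' deposited table. The 4 bins of Shisa9 lay between -0.079 and 0.085, with intervals reaching from -0.36 to 0.40, and the smallest p at E001 (change -0.079, p = 0.489) by the authors' deposited table.

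In Cnih3 1 of the 9 listed bins had an unadjusted p under 0.05. Bin E003, with a mean count of 466, was listed 1.16-fold higher in the knockout by the authors' deposited table (log2 change 0.21, approximate SE 0.078, interval 0.057 to 0.36, p = 0.00394, adjusted p = 1). It did not pass, and it had the smallest p of all 118 bins. The approximate intervals of the other 8 bins of Cnih3 held 0. Of the bins next to E003, E002 had a change of 0.13 (interval -0.15 to 0.41, p = 0.399) by the authors' deposited table. On the other side, E004 had one of 0.0051.

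Grip1 had the widest spread. It is a gene with several known isoforms, and 28 of its bins were listed, with low mean counts between 24.3 and 93.4. For bin E044 the authors' deposited table listed a log2 change of -0.62 (approximate SE 0.24, interval -1.09 to -0.16, mean count 24.3, p = 0.00876, adjusted p = 1). For bin E017 the authors' deposited table listed one of 0.32 (approximate SE 0.16, interval 0.012 to 0.64, mean count 57.6, p = 0.035, adjusted p = 1). Neither passed, and they point in opposite directions. The listed bins around E044 had the same sign as it. The authors' deposited table listed -0.21 for E042 (p = 0.220), -0.42 for E045 (p = 0.05004) and -0.32 for E046 (p = 0.122). The bins on either side of E017 shared its sign too, with 0.24 for E016 (p = 0.121) and 0.23 for E018 (p = 0.113) by the authors' deposited table.

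Along Grip1, the 6 listed bins of lowest number, E014 to E019, had changes above 0 throughout, with a median of 0.17. The 8 of highest number, E041 to E049, had changes below 0 throughout, with a median of -0.16. Of the 14 between, 7 lay above and 7 below 0. Among the latter were E038 at -0.053 and E040 at -0.096, the listed bins just before E041, so the lower boundary of the negative stretch was arbitrary. These stretches were drawn after the values were seen, bins of one gene share transcripts and their changes are relative to each other, and no test was made of them. The table gives no position for a bin, so none was placed on a Grip1 transcript.

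**Figure D3:**
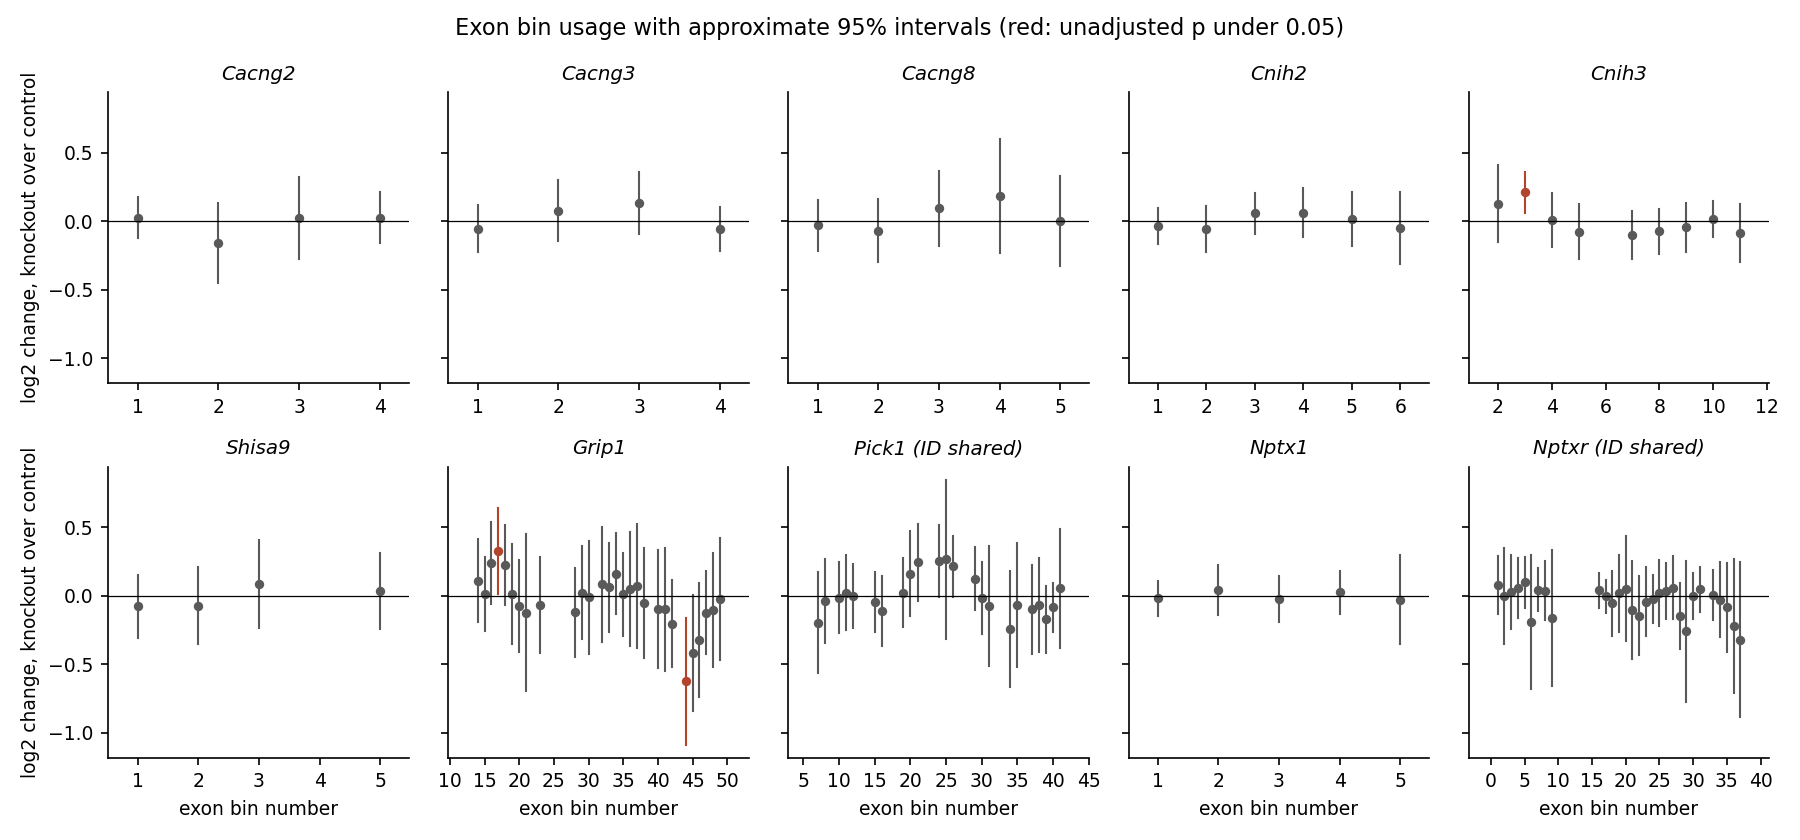
Log2 change in exon bin usage, knockout over control, against bin number for each of the 10 genes, with points from the authors' deposited table and bars for approximate 95% intervals. Red marks the 3 bins with an unadjusted p under 0.05, E003 of Cnih3 and E017 and E044 of Grip1, and in Grip1 the 6 lowest-numbered bins lie above 0 and the 8 highest-numbered below it.

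The bins of the shared identifiers held no unadjusted p under 0.05. Under the identifier of Pick1 and Lgals1-ps2 the changes lay between -0.24 and 0.26. Bin E024 had the smallest p there, with a change of 0.25 (interval -0.0089 to 0.52, p = 0.0522, adjusted p = 1) by the authors' deposited table. In the Nptxr locus the changes lay between -0.32 and 0.097, with the smallest p at E028 (change -0.15, interval -0.39 to 0.095, p = 0.218) by the authors' deposited table. Which of these bins belong to Pick1 or Nptxr themselves was not resolved.

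The precision of a bin value follows from its mean count and its dispersion. The deposited dispersions of the 118 bins correspond to a coefficient of variation of 7.08% to 30.1%. Its median was 13.1%, beside 12.6% over all bins. For many bins the dispersion follows the mean count closely. Bins E003 of Cacng2 and E016 of Grip1, with mean counts of 63.4 and 63.1, both had 0.0179. Such values cannot be read as a spread between libraries measured for each bin. The approximate SE ran from 0.061 to 0.30 on the log2 scale, and the bin with the largest SE, under the identifier of Pick1, had a mean count of 23.8 and a coefficient of variation of 29.0%.

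No editing site was listed in any of the 10 genes among the 143 sites of the editing table, where 48.3% of sites had an adjusted p under 0.05. The R/G sites are in their receptor partners. The authors' deposited table gave 23.2% edited in the knockout and 73.0% in the control for Gria2, 23.4% in the knockout and 79.5% in the control for Gria4, and 81.2% in the knockout and 94.2% in the control for Gria3. At the level of the gene, Gria1 to Gria4 had log2 differences between -0.11 and 0.093, and the smallest p was 0.151, by the authors' deposited table.

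The wider pathway was followed through 6 further lists with 76 listed genes, which include the Gria genes. None had an adjusted p under 0.05, and 2 had an unadjusted p under 0.05, Arc and Myo5b, against 1.86% of all genes. Of 13 other auxiliary subunits 12 were listed, 11 of them with a positive difference, against 52.9% of all genes, with a median of 0.058. The differences of 4 of the 12 were smaller than 0.05 in either direction. None of the 12 had an unadjusted p under 0.05, and their shared direction was not tested. The 2 with the smallest p were Prrt1, whose product binds AMPA receptors, and Shisa6, a relative of Shisa9, for which the authors' deposited table listed log2 differences of 0.49 (p = 0.169) and 0.81 (p = 0.296) at 153 and 79.2 counts. The TARP genes outside the 10, Cacng4, Cacng5 and Cacng7, had p-values of 0.940, 0.876 and 0.816 by the authors' deposited table.

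Genes of receptor assembly, 6 of 6 listed, had a median difference of -0.0012. The smallest p-values among them were 0.378 for Porcn (log2 difference 0.083) and 0.401 for Abhd6 (log2 difference -0.10), which encodes a hydrolase that restrains receptor delivery, by the authors' deposited table.

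Of 20 other adaptors and scaffolds, 10 had a positive and 10 a negative difference, with a median of -0.0080. Arc, an activity-induced gene whose product drives AMPA receptor endocytosis, had a log2 difference of -0.54 at 2844 counts (p = 0.00333, adjusted p = 1) by the authors' deposited table. After Arc the smallest p was that of Nptx2. Dlg4, which encodes the scaffold PSD-95 that TARPs bind, had a log2 difference of 0.19 at 6140.2 counts (p = 0.186, adjusted p = 1) by the authors' deposited table.

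Of 18 listed genes of vesicle traffic, 11 had a positive difference and the median was 0.032. Myo5b, which encodes a motor that carries recycling endosomes into spines, had a log2 difference of 0.24 at 1062 counts (p = 0.00521, adjusted p = 1) by the authors' deposited table. The kinesin gene Kif5a was next by p, with a difference of 0.12 (p = 0.177) by the authors' deposited table. The 16 kinases and phosphatases had a median of -0.0069, and Camk2a among them, which encodes a kinase that phosphorylates AMPA receptors and TARPs, had a log2 difference of 0.13 (p = 0.373) by the authors' deposited table. Cacng1 and Cacng6, gamma subunits outside the TARPs, were not among the listed genes, so no value is given for them.

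**Figure D4:**
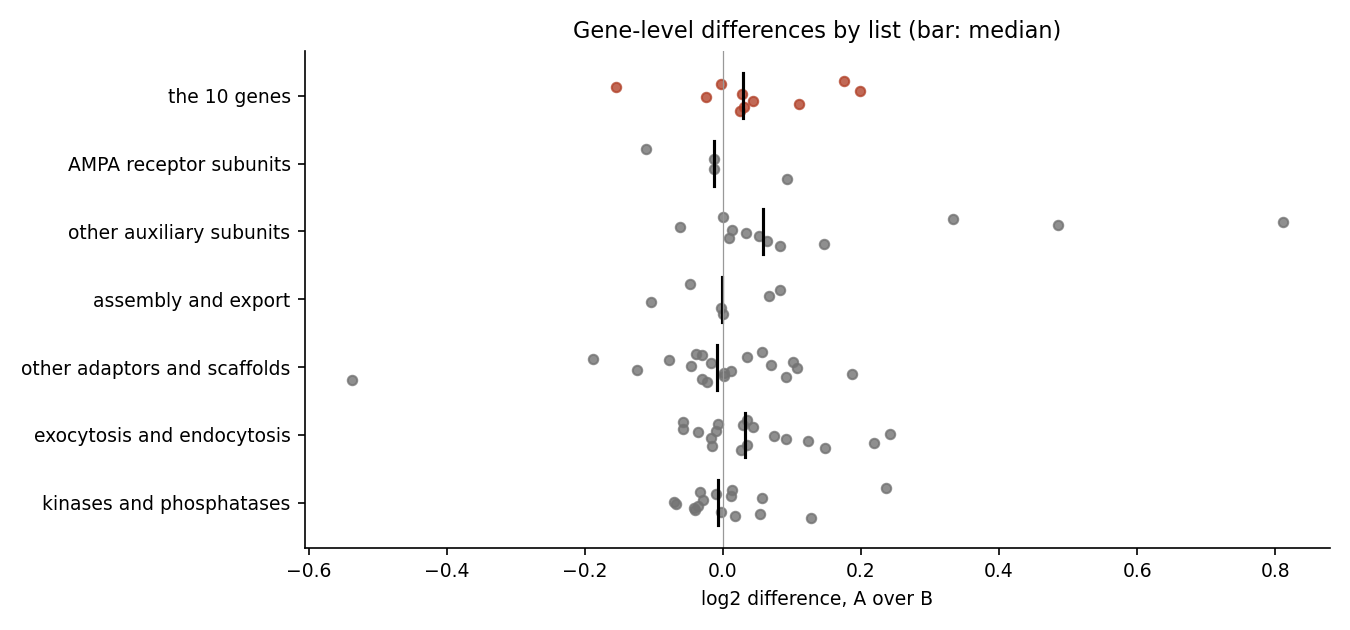
Log2 difference of A over B for the 10 genes (red) and for the genes of the 6 other lists (grey), from the authors' deposited table, with a black bar at each list's median. The medians lie between -0.012 and 0.058, and the points farthest from 0 are Arc at -0.54 and Shisa7, Prrt1 and Shisa6 at 0.33, 0.49 and 0.81, none of which passed.

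Markers of other cells were set beside these values. The median log2 difference was 0.12 for the 10 excitatory neuron markers, 0.13 for the 10 interneuron markers, 0.21 for 8 listed markers of striatal projection neurons and 0.062 for 8 astrocyte markers. It was 0.065 for 8 microglia markers, 0.093 for 5 markers of oligodendrocyte precursors, 0.11 for 3 of choroid plexus, 0.014 for 8 of oligodendrocytes and -0.026 for 6 of endothelium and pericytes. Summed mean counts, both conditions together, were 30484 for the excitatory, 20704 for the interneuron, 4025 for the striatal and 242 for the choroid plexus markers. They were 129323 for astrocyte, 23520 for oligodendrocyte, 9636 for microglia, 8810 for endothelium and pericyte and 4673 for oligodendrocyte precursor markers. These sums cover unlike numbers of genes and are not scaled to length, so they do not measure shares of cells. Of the 66 listed markers 3 had an unadjusted p under 0.05, against 1.86% of all genes, and none an adjusted p under 0.05. These were 2 of the 8 striatal markers and 1 of the 10 interneuron markers. The part of cell composition in the values of the 10 genes was not tested.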

How the data were processed

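Libraries were made from Trizol-extracted total RNA with a stranded kit after ribosomal RNA removal, per the labels. DESeq, HTSeq, TopHat2 2.0.6, SAMtools 01.19.0, Bowtie2 2.02.0 and build mm9 appear in the submitters' processing notes, with no roles. The authors deposited 3 tables of group comparisons. The gene table holds a signal (mean normalized count), a ratio of B over A, its log2 and p-values, per the file headers; 2 columns of condition means without a genotype were not used. The exon table holds a deposited mean count signal, log2 of control over Adar2, p-values and dispersion, a score of spread. The editing table holds the percent edited, another deposited value (position) and adjusted p. Rows start at a mean count of 15.0 for genes and 20.0 for bins.

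The 10 genes and all lists were chosen with earlier results of these data known. Exon table identifiers were matched to symbols through GENCODE M21, and 6 list genes through older RefSeq symbols. An adjusted p under 0.05, over all the authors' tests, was the call. The approximate SE of a bin is the square root of (dispersion + 1/mean count)(1/6 + 1/6), divided by ln 2. Over 149134 bins its z correlated with that of the deposited p at 0.987, with a median ratio of 0.972 among bins with p under 0.5. Both rest on the same deposited data, so this likeness was largely built in and does not check the coverage of the intervals. The SE assumes size factors near 1. No source ties a library to its own mouse beyond the 6 cortices per genotype, so p-values of genes and bins refer to variation between libraries. For many bins that variation is a dispersion that follows the mean count. For editing sites only a pooled percent per genotype was listed. What spread their adjusted p reflects is not stated. Named were the 10 genes, Adarb1, the Gria genes, the 2 genes of smallest p per other pathway list (1 of them is not reported here), and, per gene, the bin of smallest p and any under 0.05. Dlg4, Shisa7, Cacng4, Cacng5, Cacng7, Cbx6 and neighbouring bins were added after their values were seen. Computation used Python 3.11.15, pandas 2.3.3, scipy 1.17.1 and statsmodels 0.14.6.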

Additional observations from a re-analysis of the deposited data

How the results depend on the processing

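The counts of called genes and bins were 0 of each. They were the same with an adjusted p under 0.1, renewed adjustment over the listed genes or bins, and Bonferroni. They also held with minimum mean counts of 100 for genes and 50 for bins, and that of bins with a Simes p per gene. Every deposited adjusted p here lay far above 0.1, and Bonferroni cannot call more than the renewed adjustment. The looser threshold and Bonferroni thus could not have changed these counts and show no stability. The median difference of the 10 genes, 0.029, lay between 0.023 and 0.082 as a mean, weighted mean, without Nptxr (chosen after seeing the data) or set against all genes. Against the excitatory neuron markers, a scaling that shifts all genes by 0.12, it reversed to -0.089. By this constant shift Cacng2, Cacng3, Cacng8, Cnih2 and Grip1 reversed to -0.093, -0.087, -0.0075, -0.075 and -0.091, and 71.3% of all genes above 0 turned negative too. The median bin change of -0.0085 reversed to 0.0052 with a minimum mean count of 50 and to 0.022 as a weighted mean. No paired analysis was possible because the tables hold no values per library, and leaving out libraries could not be run for the same reason. By mean count, the smallest difference with an unadjusted p under 0.05 among genes of like count ran from 0.14 for Cnih2 to 0.34 for Nptxr.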
